A study of Mus musculus with 8 samples.

Results

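The comparison is of blood stem and progenitor cells from the fetal liver of Hmga2 knockout embryos (Hmga2-/-) with the same sorted population from wild-type embryos (Hmga2+/+), both at E14.5, midgestation. It takes 3 knockout and 3 wild-type arrays, named by the genotype in their titles, out of 8 arrays in the series. The other 2 arrays, from wild-type bone marrow of mice aged 8 to 12 weeks, entered the estimate of the spread and are shown for their levels. All cells were sorted as lineage-negative, Sca1-positive and cKit-positive, the gate known as LSK, which holds stem cells together with multipotent progenitors. The RNA was amplified from small amounts and hybridised to Affymetrix Mouse Gene 1.0 ST arrays, whose probe sets lie along the exons of each gene. The labels call the samples biological replicates, but the sources used here do not give the deleted part of Hmga2, the strain or the number of embryos behind each sample. All p-values rest on the spread among these arrays.

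HMGA2 is an architectural chromatin protein that binds the minor groove of AT-rich DNA through AT-hooks. Fetal stem cells are known for high Lin28b, an RNA-binding protein that blocks the maturation of let-7 microRNAs, and let-7 represses Hmga2 and the mRNAs of the Igf2bp family, whose proteins bind and stabilise other mRNAs. The series title places Hmga2 below Lin28b and let-7 in the control of self-renewal, and the comparison asks which transcripts depend on Hmga2 in fetal cells.

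The wild-type arrays did not form a uniform group. Over 19958 genes, wild-type array 3 correlated with the knockout arrays at 0.974 to 0.975, and with wild-type arrays 1 and 2 at 0.957 and 0.965. The knockout mean differed from wild-type arrays 1, 2 and 3 by a median absolute log2 difference per gene of 0.255, 0.227 and 0.161. Wild-type array 3 differed from wild-type arrays 1 and 2 by 0.281 and 0.254. The knockout mean averages 3 arrays, which lowers its noise, so these 2 sets of values are not on equal terms. Olfactory receptor genes, which blood cells do not use and which therefore measure background, had a median log2 intensity of 4.004, 4.04 and 4.003 on the knockout arrays. On wild-type arrays 1, 2 and 3 that median was 4.38, 4.36 and 3.97, and on the adult arrays 4.50 and 4.44. The 3 knockout arrays and wild-type array 3 thus lay below the other 4 arrays, a division that crosses genotype. The sources used here name no scan date or batch, and what divided the arrays was not tested. Wild-type array 3 had wild-type levels of Hmga2, so its label stands on that gene. Where array 3 moves a named difference by a large factor, values without it or against it alone are given below. The difference against array 3 alone comes from a fit with the array division as a term, chosen after seeing the data. In that fit the wild-type side is 1 array, which is assumed to vary like the other groups.

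**Figure D1:**
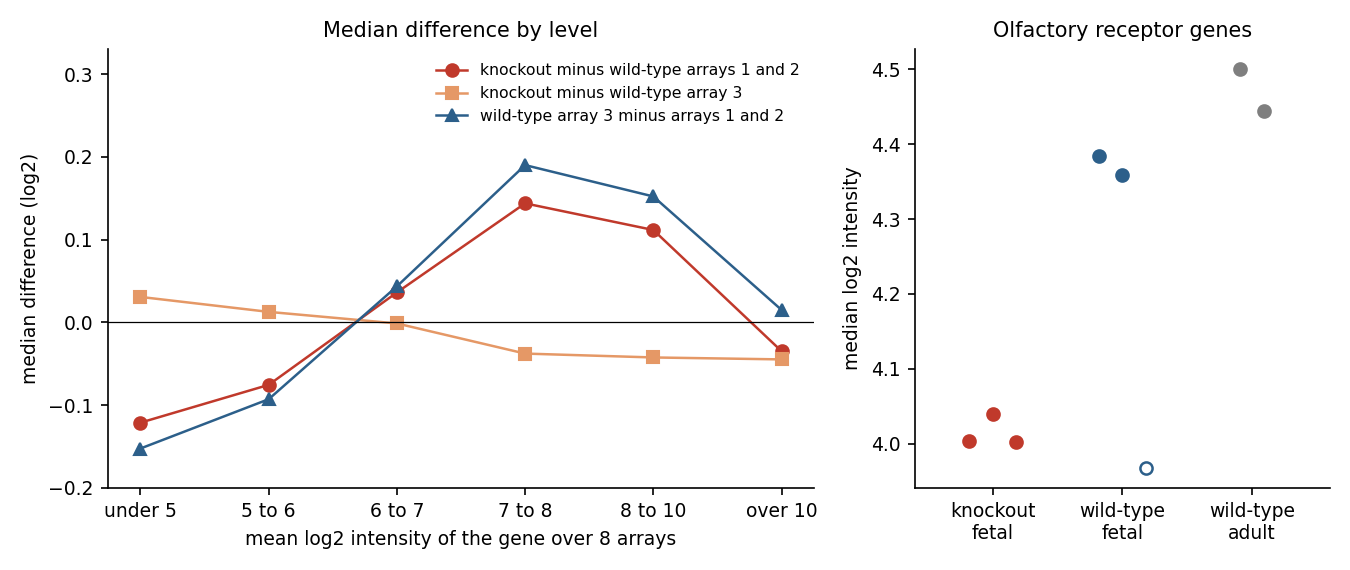
Left, the median log2 difference of genes by their mean log2 intensity, for the knockout mean minus wild-type arrays 1 and 2 (circles), the knockout mean minus wild-type array 3 (squares) and wild-type array 3 minus arrays 1 and 2 (triangles). Right, the median log2 intensity of olfactory receptor genes on each array, with wild-type array 3 as an open circle. Genes at log2 7 to 8 had a median of 0.14 for knockout minus arrays 1 and 2 and 0.19 for wild-type array 3 minus arrays 1 and 2, while knockout minus array 3 stayed at -0.04.

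The division moved with the level of a gene. Genes with a mean below log2 5 had a median difference of -0.12 for knockout minus wild-type arrays 1 and 2, and genes at log2 7 to 8 had 0.14. Against wild-type array 3 the medians were 0.03 and -0.04. Over all 3 wild-type arrays, 103 of 979 olfactory receptor genes were lower in knockout cells at an unadjusted p under 0.05 and 2 were higher, with a median of -0.18. Small differences of dim genes are read below with this in view.

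In the fit over all genes, 2 genes fell in knockout cells, Hmga2 itself and Igf2bp2, which is 0.01% of the 19958 tested (limma, adjusted p under 0.05). No gene rose (0%). At an unadjusted p under 0.05 stood 814 genes lower (4.08%) and 709 higher (3.55%) in knockout cells. With the array division as a term, which sets the knockout arrays against wild-type array 3 alone, Hmga2 and Igf2bp2 passed, and 396 genes were lower and 285 higher at an unadjusted p under 0.05. The 3 knockout arrays lay wholly below the 3 wild-type arrays for 1569 genes (7.86%) and wholly above them for 1185 (5.94%).

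Hmga2 read 5.89, 5.88 and 6.08 on the knockout arrays, against 9.24, 9.01 and 8.83 on the wild-type fetal arrays, as the mean log2 intensity of its 8 probe sets. The adult arrays read 6.61 and 7.19. The group means were 5.95 ± 0.12 in knockout cells and 9.02 ± 0.21 in wild-type cells (SD, n = 3 each). The knockout arrays lay close together, at the 95th percentile of olfactory receptor genes, 5.97, so the fall is at least 8.10-fold (log2 difference -3.08, SE 0.19, limma adjusted p = 0.000448). Against wild-type array 3 alone the difference was -2.88 (SE 0.26, adjusted p = 0.0411). In the deposited exon table Hmga2 had a difference of -3.12 that did not pass (SE 0.55, adjusted p = 0.391). That setting averaged 166449 of 199508 exon rows, tied to genes through probe sets with identical values on all arrays. It re-averages part of the same values and is no separate measurement.

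The 2 called genes and a gene antisense to Hmga2 are shown by their promoters, 250 bases before to 50 after the annotated start (RefSeq, GRCm38.p6), because they hold the 3 smallest p-values of the comparison. Capitals mark runs of 6 or more A or T, read on either strand, the base composition that AT-hooks are known to prefer.
Hmga2, chr10:120476420-120476719, minus strand: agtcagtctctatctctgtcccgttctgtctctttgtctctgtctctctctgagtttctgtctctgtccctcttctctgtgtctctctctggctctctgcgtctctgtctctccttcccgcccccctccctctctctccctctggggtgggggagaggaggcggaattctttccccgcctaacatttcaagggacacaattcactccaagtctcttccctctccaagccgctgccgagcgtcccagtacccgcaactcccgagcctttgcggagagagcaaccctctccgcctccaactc
1700006J14Rik, chr10:120363884-120364183, plus strand: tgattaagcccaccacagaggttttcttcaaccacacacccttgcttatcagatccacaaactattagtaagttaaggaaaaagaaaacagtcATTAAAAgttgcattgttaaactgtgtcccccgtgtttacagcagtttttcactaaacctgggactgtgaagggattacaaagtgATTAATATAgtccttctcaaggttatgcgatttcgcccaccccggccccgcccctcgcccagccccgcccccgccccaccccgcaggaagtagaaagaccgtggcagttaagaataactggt
Igf2bp2, chr16:22163250-22163549, minus strand: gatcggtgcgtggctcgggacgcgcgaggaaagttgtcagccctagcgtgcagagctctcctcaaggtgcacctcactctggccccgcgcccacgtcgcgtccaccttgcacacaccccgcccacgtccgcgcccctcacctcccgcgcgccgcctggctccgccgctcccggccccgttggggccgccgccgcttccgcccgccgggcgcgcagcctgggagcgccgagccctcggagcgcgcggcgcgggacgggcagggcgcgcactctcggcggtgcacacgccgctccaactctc
Such runs occurred in 69.6% of 32851 mouse promoters of this length, 2 times in that of 1700006J14Rik and in neither of the other 2. The promoter of Igf2bp2 was 23.3% A and T, that of Hmga2 42.3% and that of 1700006J14Rik 52.3%, where the median promoter had 47.3%. The window says nothing of runs elsewhere in these genes.

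The probe sets of Hmga2 differed widely in how far they fell. All 8 were lower in knockout cells and 7 of them without overlap between genotypes, where 6.57% of all probe sets were lower without overlap. Probe set 10372797, the first in the array's numbering, read 5.41, 5.09 and 4.48 on the knockout arrays, against 11.74, 11.83 and 11.74 on the wild-type arrays. All 3 knockout values lay below 6.13, the 95th percentile of background probe sets, so the mean was at least 49.9-fold lower (fitted log2 difference -6.78, SE 0.59). The fifth, 10372801, read 8.46, 8.24 and 8.48 in knockout cells, against 9.90, 9.64 and 9.68 in wild-type cells, and 8.63 and 8.43 in adult cells. It kept a signal far above background in every group and differed by -1.34 (SE 0.29). The sixth, 10372802, read 6.84, 6.73 and 7.16 in knockout cells, against 7.41, 7.18 and 8.20 in wild-type cells, a difference of -0.69. In 3 of the 8 the knockout mean lay above 6.13. The sources used here place neither the probe sets nor the deletion on the transcript, and which probe sets read sequence absent from the knockout was not tested.

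**Figure D2:**
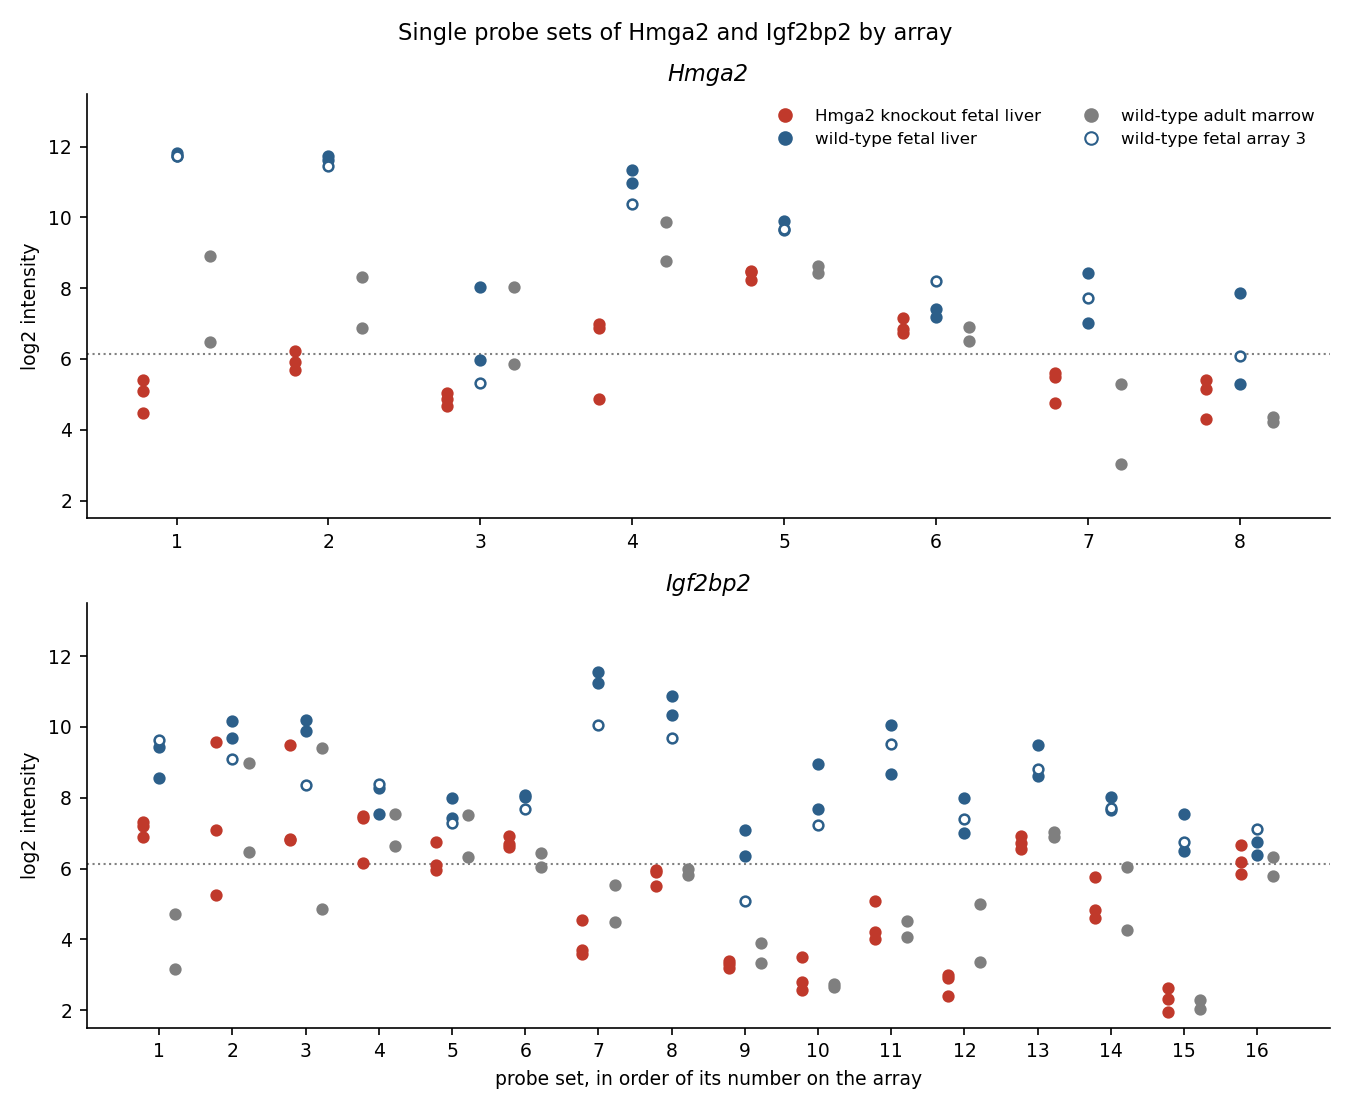
Log2 intensity of each probe set of Hmga2 (8) and Igf2bp2 (16) on the knockout, wild-type fetal and adult arrays, with wild-type array 3 as an open circle, and the 95th percentile of probe sets of olfactory receptor genes as a dotted line. All 24 knockout means lie below the wild-type fetal means, and the gap runs from -6.99 to -0.52.

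Beside Hmga2 itself, one more transcript of its locus was low in knockout cells. 1700006J14Rik is a long noncoding RNA that RefSeq places inside the span of Hmga2, on the opposite strand. It read 5.69, 5.58 and 5.44 on the knockout arrays, against 6.79, 6.99 and 7.03 on the wild-type arrays, and 6.25 and 6.56 on the adult arrays. The genotypes did not overlap, and the log2 difference of -1.37 (SE 0.15) had the smallest p after the 2 called genes, just short of the threshold (limma adjusted p = 0.0504). The knockout mean lay below background, which makes the wild-type level at least 1.96-fold higher. Its 3 probe sets differed by -1.29, -0.91 and -1.91, all without overlap. Against wild-type array 3 alone the difference was as large, -1.47 (SE 0.21). Median centring (adjusted p = 0.0312), quantile normalization (0.0333) and array weights (0.0264) brought it past the threshold, within a range of 0.0264 to 0.477 over the settings tried. The labels name sense-strand cDNA, but whether these probe sets keep the strands apart was not tested. Of 5 genes inside the span of Hmga2 it was the only one measured.

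Of the 20 genes nearest to Hmga2, 5 were measured. Besides 1700006J14Rik these were Helb, a DNA helicase (difference 0.42), Irak3, a brake on Toll-like receptor signalling (-0.39), Tmbim4 (-0.43) and Llph (0.36), none with an unadjusted p under 0.05. Wild-type array 3 lay near the knockout mean for Helb (7.44, against 7.49) and Llph (7.77, against 7.74). It lay below the knockout mean for Irak3 (6.48, against 6.84) and above it for Tmbim4 (9.32, against 9.02). Of the 20 nearest to Igf2bp2, 8 were measured and 0 had an unadjusted p under 0.05, with differences from -0.25 for Senp2, a SUMO protease, to 0.44 for Etv5, an ETS transcription factor. On wild-type array 3 Senp2 read 7.34, near its knockout mean of 7.27, and Etv5 6.70, below its knockout mean of 7.31. Tra2b, a splicing regulator 3 genes away, read 10.81, 10.84 and 10.81 in knockout cells, against 10.42, 10.54 and 10.69 in wild-type cells. On chromosome 10 as a whole 8.75% of genes had an unadjusted p under 0.05, within the range of the other autosomes and X, 4.82% to 9.29%.

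Igf2bp2 encodes an mRNA-binding protein of the oncofetal IMP family and is a known target of HMGA2 in other tissues. It read 5.40, 5.46 and 5.22 on the knockout arrays, against 8.31, 8.81 and 8.11 on the wild-type fetal arrays, and 5.37 and 5.27 on the adult arrays. The means were 5.36 ± 0.12 in knockout cells and 8.41 ± 0.36 in wild-type cells (SD, n = 3 each). Every knockout array lay below background, as both adult arrays did, so the fall is at least 5.44-fold (log2 difference -3.05, SE 0.19, limma adjusted p = 0.000448). Against wild-type array 3 alone it was -2.76 (SE 0.24, adjusted p = 0.0411), and the adjusted p stayed under 0.05 in each of the settings tried.

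All 16 probe sets of Igf2bp2 were lower in knockout cells, 13 of them without overlap, and 12 had an unadjusted p under 0.05, against 3.52% of all probe sets. The seventh, 10438611, read 3.59, 3.71 and 4.56 on the knockout arrays, against 11.55, 11.24 and 10.0 on the wild-type arrays, at least 28.1-fold lower with all knockout values below background. The fifteenth, 10438619, read 2.63, 1.95 and 2.33, against 6.51, 7.55 and 6.76. Both were as low in adult cells, at 4.48 and 5.54 for the seventh and 2.02 and 2.28 for the fifteenth. The second, 10438605, was less uniform, with 7.10, 9.58 and 5.25 in knockout cells, against 9.69, 10.17 and 9.10 in wild-type cells. Knockout array 2 was high in it, as was adult array 1 at 8.98. The third repeated this, with 9.48 on knockout array 2 and 9.39 on adult array 1. The first read 7.32, 6.90 and 7.20 in knockout cells, above the adult 4.72 and 3.17 and below the wild-type 8.56, 9.44 and 9.63. The fall was thus to adult levels or background in most probe sets, and 8 of 16 kept a knockout mean above 6.13. No probe set passed in the limma fit over 208881 probe sets, where 7358 were lower at an unadjusted p under 0.05, and the 4 smallest adjusted p-values, each under 0.1, belonged to Hmga2 and Igf2bp2.

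**Figure D3:**
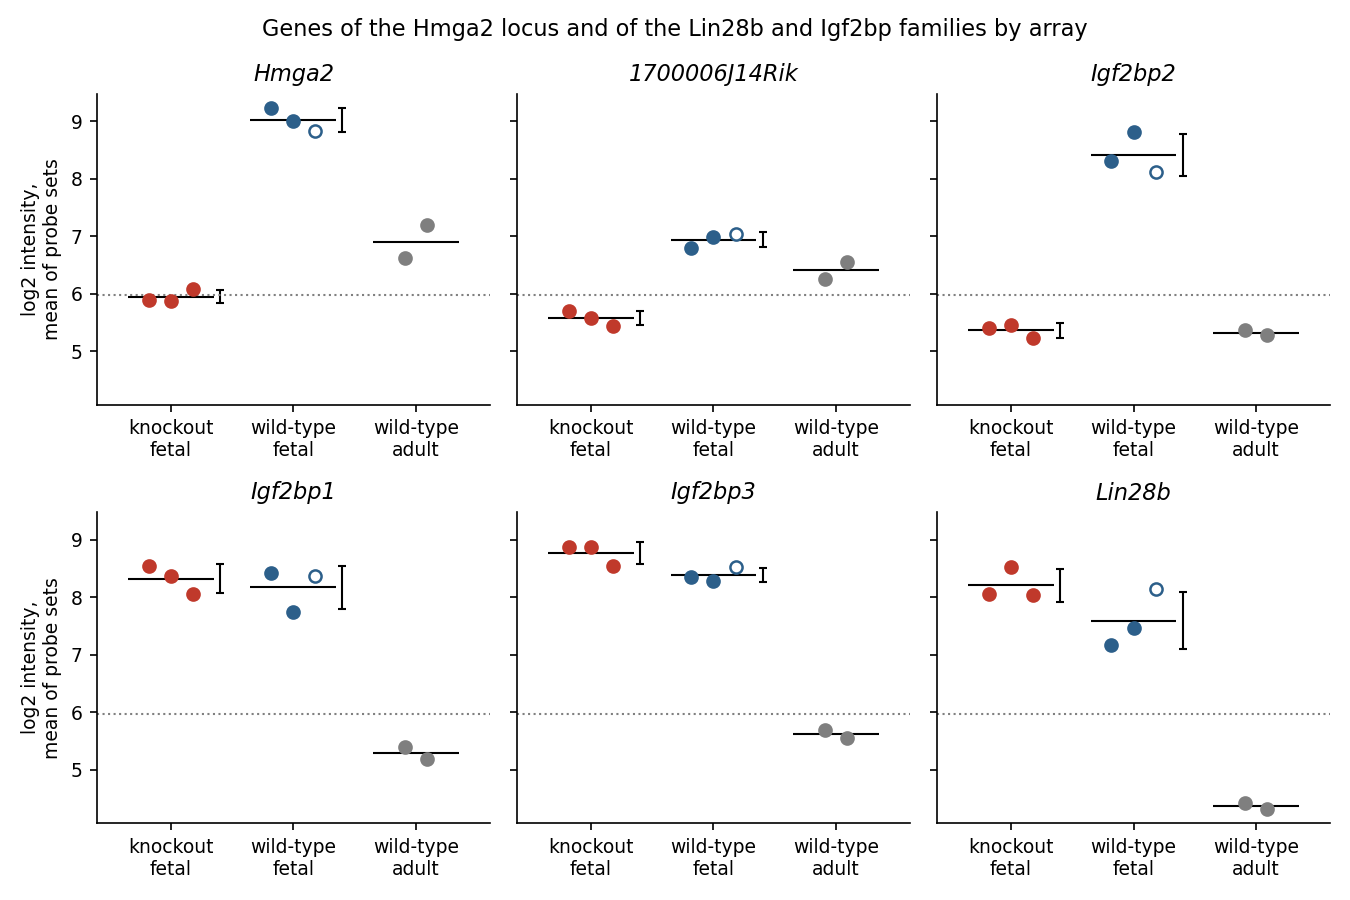
Log2 intensity of 6 genes on each knockout, wild-type fetal and wild-type adult array, as the mean of their probe sets, with group means as lines, SD as bars (n = 3) and background, 5.97, as a dotted line. The open circle is wild-type array 3. Igf2bp2 on the knockout arrays, 5.22 to 5.46, lies at the adult level, while Igf2bp1, Igf2bp3 and Lin28b lie well above their adult levels in both fetal groups.

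The relatives of Igf2bp2 and Lin28b gave no call and lay far above their adult levels in both fetal groups. Igf2bp3 read 8.88, 8.88 and 8.55 in knockout cells, against 8.36, 8.29 and 8.53 in wild-type cells, and 5.69 and 5.56 in adult cells. The genotypes barely separated, and the difference of 0.38 (SE 0.15) did not pass (adjusted p = 0.632). Igf2bp1 read 8.54, 8.37 and 8.05, against 8.42, 7.74 and 8.36, with overlap and a difference of 0.15 (SE 0.22), which was -0.04 against wild-type array 3. Lin28b read 8.06, 8.53 and 8.03 in knockout cells, against 7.17, 7.46 and 8.15 in wild-type cells. The knockout arrays lay above wild-type arrays 1 and 2 and at the level of array 3, so the difference of 0.61 (SE 0.25, adjusted p = 0.632) was 0.89 without array 3 and 0.06 against it alone.

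Of 16 measured genes of the axis and the let-7 pathway, 2 fell and 0 rose, where 0.01% and 0% of all genes did. They were the deleted gene Hmga2 and Igf2bp2, so the count is no separate result. The median difference was 0.14 where all genes had -0.02. That list median was 0.21 without wild-type array 3 and -0.03 against it alone. The processing enzymes Drosha (0.14), its partner Dgcr8 (-0.14), the export factor Xpo5 (0.19) and Dicer1 (0.25) gave no call. Nor did Dis3l2 (-0.43), the exonuclease that degrades uridylated let-7 precursors, or the uridyl transferases Tut4 (0.24) and Tut7 (0.15). Arid3a, a transcription factor gene that let-7 represses, read 7.15, 7.02 and 6.73 in knockout cells, against 7.21, 6.96 and 7.14 in wild-type cells. Lin28a stayed below background in every group. Of 31 measured let-7 targets, which include Hmga2 and the Igf2bp genes, those same 2 fell and the median was 0.02.

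No other architectural protein gene was called. Hmga1, the close relative of Hmga2 with the same AT-hooks, read 7.92, 7.93 and 7.96 in knockout cells, against 8.21, 8.03 and 7.72 in wild-type cells. The knockout arrays lay inside the wild-type range, and the difference of -0.05 (SE 0.16) had an adjusted p of 0.944 and turned to 0.16 with the median of its 3 probe sets. Hmgb1, an HMG-box protein, differed by 0.27. Of the nucleosome-binding HMGN proteins, Hmgn2 read 8.46, 8.71 and 8.32 against 9.13, 9.49 and 8.54, and Hmgn5 10.84, 10.86 and 10.89 against 10.14, 10.14 and 10.89. In both, wild-type array 3 stood at the knockout level. None of the 7 measured members passed, and 0 had an unadjusted p under 0.05.

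Genes reported elsewhere to respond to HMGA2 gave 1 call among 18 measured, Igf2bp2, where 0.01% of all genes were called lower. Cdkn2a, whose products p16Ink4a and p19Arf restrain the cell cycle and which HMGA2 is reported to lower in neural stem cells, read 5.39, 5.51 and 5.47 in knockout cells, against 5.12, 4.97 and 5.43 in wild-type cells. All 6 values lay below background, so no fold is given. Cdkn1a, which encodes the CDK inhibitor p21, read 5.87, 6.52 and 5.43, against 7.43, 7.17 and 6.48. The difference of -1.09 (SE 0.31, adjusted p = 0.592) was -1.36 without wild-type array 3 and -0.54 against it. The group means lay at least 1.83-fold apart, but the genotypes overlapped, with knockout array 2 above wild-type array 3. The remaining members included Myc (-0.05), Nras (0.01), Ccna2 (0.08), Ccnb2 (0.06) and Junb (0.18).

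Outside the called genes, the rule for naming took the 12 smallest p-values in each direction among genes above background, leaving out clone-named genes such as 1700006J14Rik. Derl2, a derlin of the pathway that exports misfolded proteins from the endoplasmic reticulum, had the smallest p of these. It read 6.65, 6.70 and 6.52 in knockout cells, against 7.78, 7.66 and 7.57 in wild-type cells, and 7.42 and 7.26 in adult cells (difference -1.05, SE 0.14, adjusted p = 0.155). Among its 8 probe sets, 10388039 differed by -4.15 with knockout values below background, and it weighs heavily on this mean. Phf19, a Polycomb repressive complex 2 subunit that reads methylated histone H3, read 5.62, 5.39 and 5.62, against 6.64, 6.60 and 6.69 (-1.10, SE 0.17, adjusted p = 0.292). Its knockout level lay below background, which makes it at least 1.60-fold lower, and the genotypes were far apart.

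Pdcl, a phosducin-like partner of G protein subunits, read 5.93, 6.39 and 6.47 in knockout cells, against 7.53, 7.54 and 8.23 in wild-type cells. Myct1, a gene of stem cells and endothelium, read 6.25, 6.59 and 6.31, against 7.86, 7.44 and 7.33, while adult cells had 8.06 and 8.61. Cd59a, which shields cells from complement, read 4.07, 4.55 and 4.93, against 6.41, 6.48 and 5.65. In each of these genes the 3 knockout arrays lay below all wild-type arrays. The differences of Pdcl and Myct1 were -1.50 and -1.16 (adjusted p = 0.405 and 0.411). Cd59a lay below background in all knockout arrays and in wild-type array 3, so it was at least 1.16-fold lower (fitted difference -1.66, adjusted p = 0.292). The lower side also held Ctns, the lysosomal cystine transporter, Socs7, a suppressor of cytokine signalling, the potassium channel gene Kcnq5, Tmem123, Tex19.1, Spata48 and Ing1, which reads methylated histone H3, at -0.65.

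On the higher side, Tspan5, a tetraspanin, read 8.64, 8.76 and 8.98 in knockout cells, against 7.76, 7.98 and 7.87 in wild-type cells, and 7.14 and 6.996 in adult cells. The genotypes stood apart by more than the spread of either (difference 0.92, SE 0.15, adjusted p = 0.292), and the difference was 0.93 against wild-type array 3 alone. Naa16, an auxiliary subunit of an N-terminal acetyltransferase, read 7.92, 8.28 and 8.10, against 7.02, 7.25 and 7.37. Akip1, an interactor of protein kinase A, read 8.00, 7.81 and 7.26, against 5.50, 5.99 and 6.32, with a difference of 1.75. Its wild-type mean lay below background, so the knockout mean was at least 3.03-fold above it, and against wild-type array 3 the difference was 1.37. The knockout arrays lay above all wild-type arrays in all 3 genes.

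Emilin2, an extracellular matrix glycoprotein, read 7.06, 6.80 and 7.05 in knockout cells, against 5.70, 6.04 and 6.33 in wild-type cells. Fam20b, a xylose kinase of proteoglycan synthesis, read 7.01, 7.66 and 6.94, against 6.25, 6.23 and 6.16. The others were the zinc finger gene Zfp160, Dennd1b, a Rab exchange factor, and Ccdc173, Tusc2, Nudt6, Fndc9 and Leng1. None of the 24 passed over all genes, and their adjusted p ran from 0.155 to 0.577. All 24 kept their direction against wild-type array 3, by -1.96 to -0.58 for the 12 lower and by 0.60 to 1.37 for the 12 higher. They were taken for small p-values on these same arrays, so this describes them and is no further test. The adult mean lay nearer to the wild-type fetal than to the knockout mean for 8 of the 12 lower and 9 of the 12 higher genes. Choosing genes whose knockout arrays stood apart favours such counts. The adult arrays also lay with wild-type arrays 1 and 2 in the array division, so nothing is read from them.

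**Figure D4:**
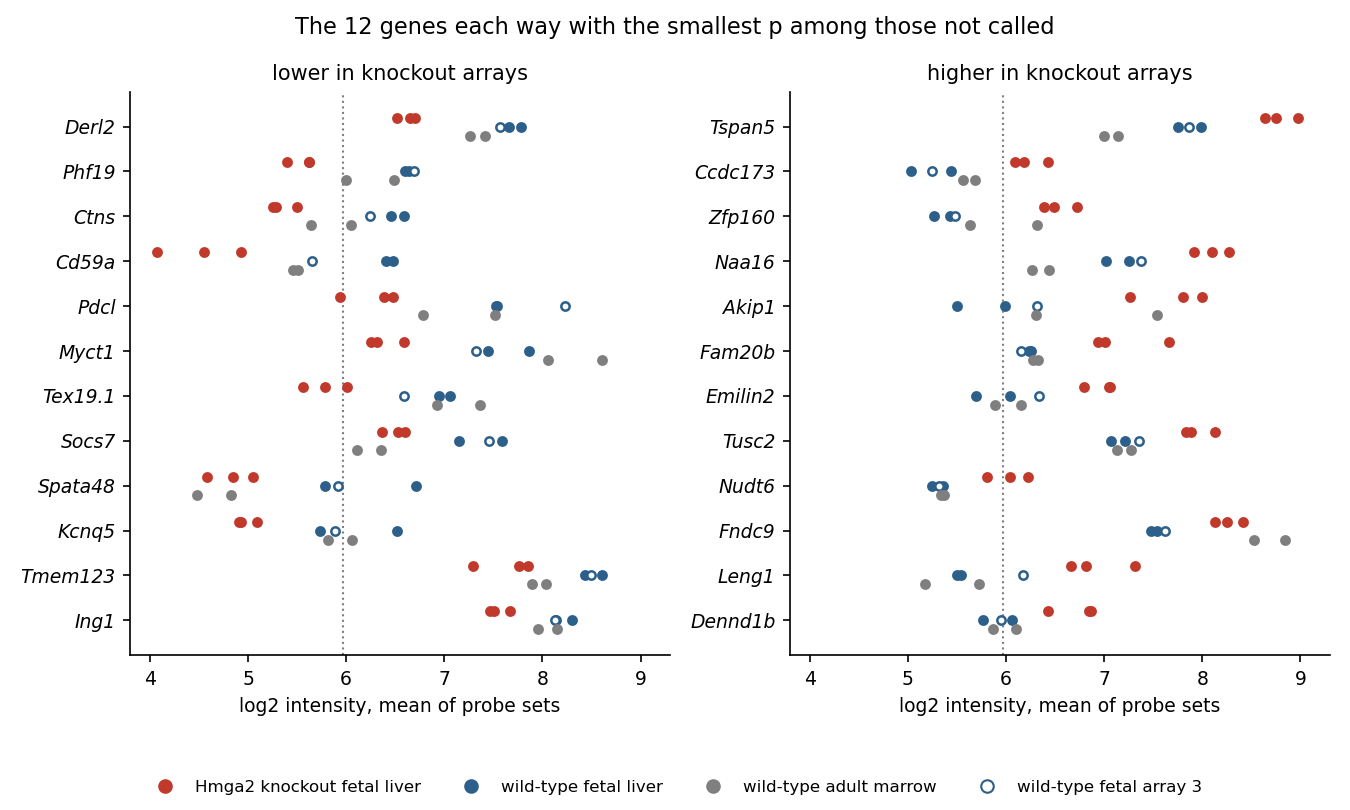
Log2 intensity on each knockout, wild-type fetal and adult array of the 12 genes lower (left) and the 12 genes higher (right) in knockout cells with the smallest p among genes not called, 1700006J14Rik and other clone-named or predicted genes left out, ordered by p, with background, 5.97, as a dotted line. In all 24 the knockout points lie apart from the wild-type fetal points, wild-type array 3 (open circles) included.

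Ctse, a cathepsin, shows how much 1 array decides. It read 7.57, 7.28 and 7.55 in knockout cells, against 10.81, 10.95 and 6.45 in wild-type cells, and 11.23 and 11.20 in adult cells. Wild-type array 3 lay below every knockout array and arrays 1 and 2 far above. Ctse was called lower without wild-type array 3 (difference -3.41, adjusted p = 0.000509) and stood 1.02 higher in knockout cells against array 3 alone. Without that array 1674 genes were lower and 1391 higher at an unadjusted p under 0.05, against 814 and 709 with it. Sstr2, a somatostatin receptor, was called higher without knockout array 3 (2.09, adjusted p = 0.0130). It read 8.35, 8.04 and 6.42 in knockout cells, against 6.17, 6.05 and 6.09 in wild-type cells. Both genes were chosen after their values were seen.

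Among fetal stem cell genes, 2 of 16 measured fell, where 0.01% of all genes did. They were the deleted gene Hmga2 and Igf2bp2, the same calls as in the lists above and no separate result. At an unadjusted p under 0.05, 3 more were lower and 2 higher (Lin28b and Igf2bp3), where 4.08% and 3.55% of all genes were. Against wild-type array 3 alone Lin28b and Igf2bp3 differed by 0.06 and 0.24. Igf2, the fetal growth factor, read 6.56, 7.09 and 6.87 in knockout cells, against 8.04, 7.79 and 7.11 in wild-type cells (difference -0.81, SE 0.24, adjusted p = 0.627). H19, the imprinted noncoding RNA beside it, read 7.70, 8.16 and 8.25, against 9.41, 8.64 and 8.44 (-0.80, SE 0.26, adjusted p = 0.631). Dlk1, a Notch-family ligand, read 6.56, 6.39 and 6.94, against 7.37, 7.45 and 7.15 (-0.69, SE 0.18, adjusted p = 0.577). In all 3 the knockout arrays lay below all wild-type arrays, as they did for 7.86% of all genes. Wild-type array 3 was the nearest of them to the knockout arrays. Against that array the differences were -0.27, -0.40 and -0.52, and without it -1.07, -0.99 and -0.78. Over 25 measured imprinted genes, which hold the same 3, the median was -0.17, with 0 called and 11 below background in both genotypes. Olfactory receptor genes had -0.18 over the same arrays. Against wild-type array 3 the medians were -0.11 for imprinted genes and 0.03 for olfactory receptor genes.

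IGF signalling genes gave no call among 30 measured (median 0.02). Pik3cb, a catalytic subunit of PI3 kinase, differed by -0.39 (SE 0.14), and the S6 kinase gene Rps6kb1 by 0.54 (SE 0.26), with overlap. Rps6kb1 had 0.76 without wild-type array 3 and 0.09 against it. The receptor gene Igf1r differed by -0.09.

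Genes of the sort gate were present. Kit read 9.90, 9.64 and 9.84 in knockout cells, against 9.99, 10.07 and 9.78 in wild-type cells (difference -0.16, SE 0.15, adjusted p = 0.798). Ly6a, which encodes Sca1, was lower and less even, with 5.59, 6.34 and 7.25, against 7.39, 6.64 and 6.65, and 8.99 and 8.44 in adult cells. Knockout array 1 lay below background there and knockout array 3 within the wild-type range (difference -0.50, SE 0.39, adjusted p = 0.750), and the median of its 3 probe sets turned it to 0.23. Of 26 measured surface genes 0 were called. Procr, the endothelial protein C receptor that marks stem cells, read 6.90, 7.41 and 7.11 in knockout cells, against 6.48, 6.10 and 6.46 in wild-type cells (0.79, SE 0.18, adjusted p = 0.577). It lay higher on all knockout arrays, and by 0.67 against wild-type array 3. The SLAM family gene Cd244a differed by 0.69 and the TGF-beta co-receptor gene Eng by -0.41. Without wild-type array 3 these were 0.92 and -0.48, and against it alone 0.23 and -0.25. Cd34 (0.03), Cd48 (-0.0034) and Flt3 (0.13) differed little.

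Stem cell transcription factors gave 0 calls among 29 measured. Bmi1, a Polycomb gene of stem cell maintenance, differed by -0.34 (SE 0.15) and Runx1 by -0.31 (SE 0.15). Ikzf1, which encodes Ikaros, differed by 0.34 (SE 0.15). Each was without overlap between genotypes, and their unadjusted limma p was 0.049, 0.062 and 0.052. In the list 2 genes were higher and 2 lower without overlap, where 5.94% and 7.86% of all genes were. Against wild-type array 3 alone Bmi1, Runx1 and Ikzf1 had -0.19, -0.25 and 0.26. Meis1 (-0.11), Gata2 (-0.02), Hoxa9 (0.04) and Myb (-0.04) differed by less than their spread between arrays. The list median of -0.11 was 0.09 against wild-type array 3.

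The cell cycle lists gave no call. Of 31 measured G2 and M phase genes 26 lay above 0, with a median of 0.26, and 0 had an unadjusted p under 0.05. The list mean was 8.79, 8.72 and 8.58 on the knockout arrays, against 8.23, 8.42 and 8.74 on the wild-type arrays, so array 3 lay among the knockout arrays. The median was 0.41 without array 3 and -0.01 against it alone. Plk1, the mitotic kinase, read 8.21, 8.30 and 8.25 in knockout cells, against 7.55, 7.57 and 8.27 in wild-type cells. In the S phase list 2 of 28 genes had an unadjusted p under 0.05, both higher, where 3.55% of all genes were. They were Orc1 of the origin recognition complex (0.64, SE 0.24) and Cdc45 of the replicative helicase (0.65, SE 0.25). Orc1 read 7.03, 7.04 and 6.67, against 6.46, 6.13 and 6.22, and the difference was 0.69 against wild-type array 3. Of 24 G1 regulators 3 were higher at an unadjusted p under 0.05, the pocket protein genes Rbl1 (0.75) and Rbl2 (0.40) and E2f3 (0.64), and 1 was lower, Cdkn1a, where 3.55% of all genes were higher and 4.08% lower. Rbl1 had 0.98 without wild-type array 3 and 0.30 against it, and E2f3 0.81 and 0.31. Rbl2 read 6.88, 7.29 and 7.14, against 6.83, 6.72 and 6.56. The p53 pathway had a median of -0.02 over 16 genes, with Perp, a desmosomal effector of p53, at 0.41.

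**Figure D5:**
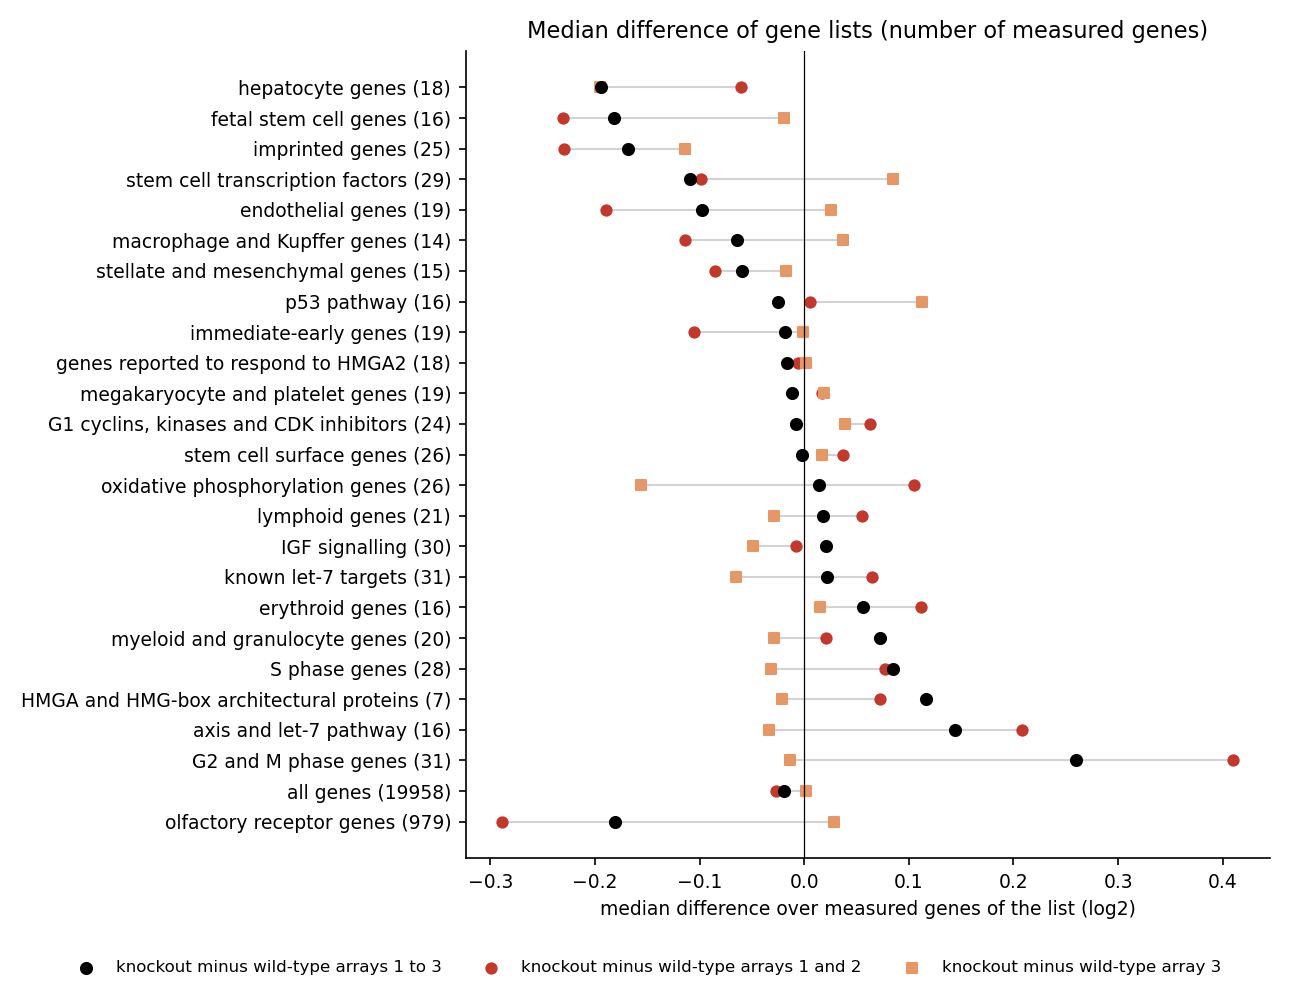
Median log2 difference, knockout minus wild type, over the measured genes of each list, against all 3 wild-type arrays (black), against arrays 1 and 2 (red) and against array 3 alone (orange squares). All genes and olfactory receptor genes stand at the bottom. The G2 and M phase list has 0.26, 0.41 and -0.01, and no list reached 0.3 in size against all 3 arrays.

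Markers of other cells in fetal liver were mostly at background. Of 18 measured hepatocyte genes 13 lay below background in both genotypes, and the list mean was 5.24 to 5.43 in knockout arrays, against 5.40, 5.41 and 5.73 on wild-type arrays 1 to 3. Of the 18 genes 4 lay above 0, and the median difference was -0.19, where olfactory receptor genes had -0.18. Without overlap 4 were lower and 0 higher, where 7.86% and 5.94% of all genes were. The median was -0.20 against wild-type array 3 and -0.06 without that array. Albumin (Alb) read 5.02, 4.72 and 5.76 in knockout cells, against 5.03, 5.60 and 6.65 in wild-type cells, and Apoa2, an apolipoprotein, 6.92, 6.37 and 6.23, against 5.59, 5.52 and 7.86. Wild-type array 3 was the highest in both. Of 14 macrophage genes 11 lay below background, with list means of 5.41 to 5.56 in knockout cells and 5.45 to 5.54 in wild-type cells. Cd68, a lysosomal protein gene of macrophages, read 7.59, 7.73 and 8.03, against 7.33, 7.38 and 7.18 (0.48, SE 0.16). Adgre1, which encodes F4/80, stayed below background throughout. Of 16 erythroid genes 10 and of 15 stellate and mesenchymal genes 10 lay below background. In sorted bulk cells, fewer cells of a type and less RNA per cell cannot be told apart.

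Endothelial genes, several of which stem cells share, had a median of -0.10 over 19 genes and 0 calls. Egfl7, a secreted factor of endothelium and stem cells, read 9.13, 8.76 and 8.99 in knockout cells, against 8.20, 8.16 and 8.86 in wild-type cells, with array 3 again at the knockout level. Lineage genes varied in this. Cebpa, the granulocyte transcription factor, read 6.81, 7.44 and 7.39, against 5.98, 6.31 and 7.12. Rag1, the antigen receptor recombinase, read 7.71, 7.06 and 7.72, against 5.90, 5.79 and 7.21. Their differences of 0.74 and 1.20 over all arrays were 0.09 and 0.29 against wild-type array 3. Rhag, the Rh-associated glycoprotein gene of red cells, had 0.69 over all arrays and 0.93 against array 3, and Tcf7, a T cell transcription factor gene, 0.40 and 0.41. Going the other way, Ms4a3 of the myeloid list had -0.52 over all arrays and -0.41 against array 3. Cd3g of the lymphoid list had -0.44 and -0.18. Of 20 measured myeloid genes 13 lay above 0, and of 21 lymphoid genes 11. The megakaryocyte, myeloid, lymphoid and erythroid lists had medians of -0.01, 0.07, 0.02 and 0.06, with 0 calls in each. Immediate-early genes (median -0.02 over 19) and oxidative phosphorylation genes (0.01 over 26) gave none either.

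The arrays also differed in sex-linked genes. Xist, the noncoding RNA of the inactive X chromosome, read 10.26, 3.62 and 10.40 on the knockout arrays, against 10.12, 8.67 and 10.18 on the wild-type arrays. The Y-linked Kdm5d read 4.27, 8.21 and 4.42, against 7.08, 7.92 and 4.38. Knockout array 2 thus had the Y-linked transcript without Xist, wild-type arrays 1 and 2 had both, and knockout arrays 1 and 3 and wild-type array 3 had Xist without it. The labels do not give sex, and its part in other differences was not tested.

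Probe sets of 1 gene can move by unlike amounts, which an average hides. An F test within genes (limma diffSplice, adjusted p under 0.05) called 131 of 16593 genes (0.789%), with Igf2bp2 and Hmga2 at the smallest p. The test assumes 1 spread for all probe sets of a gene, while the median residual SD ran from 0.36 for probe sets above log2 10 to 0.66 at 4 to 6. With each probe set tested against its own spread, an alternative chosen after seeing the data, 0 genes were called, and without wild-type array 3 the F test called 1258, so the following are descriptions. Called without each fetal array in turn were 8 genes, Hmga2, Igf2bp2, Derl2, Zfp526, Aktip, Hk1, Lsm11 and D630023F18Rik. Without the dimmest probe sets 7 of these were called, and D630023F18Rik was not.

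Aktip, an adaptor of vesicle transport, had nearly equal gene means (difference -0.24) but a probe set with 2.76, 4.60 and 3.89 in knockout cells, against 8.53, 8.49 and 8.66 in wild-type cells. The adult arrays read 4.45 and 4.01 there, near the knockout level. Hk1, the hexokinase of early glycolysis, differed by -0.14 as a gene and had a probe set with 9.33, 9.39 and 9.94, against 4.67, 7.22 and 5.59. Derl2 had one with 3.44, 2.12 and 2.74, against 6.87, 7.43 and 6.44, and the zinc finger gene Zfp526 one with 4.96, 3.82 and 4.12, against 9.87, 8.35 and 8.50. D630023F18Rik had one with 7.94, 8.54 and 9.44, against 5.20, 5.66 and 4.94. In each of these 5 probe sets the genotypes lay far apart on all arrays. Each was picked as the probe set of its gene with the clearest shift against the gene mean. The separation follows from that choice and is no further test.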

How the data were processed

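The deposited values are probe set intensities on a linear scale, made by the authors with RMA, per the submitters' processing notes; the sources used here name no version. All values were log2 transformed with no further normalization. The 208881 probe sets with exactly 1 gene symbol were averaged per gene (19958 genes); symbols came from the platform annotation, 2585 updated through RefSeq (GRCm38.p6). limma 3.58.1 (R 4.3.3) fitted all 8 arrays with 1 coefficient per group; p-values are two-sided and adjusted by Benjamini-Hochberg over all genes or probe sets, with 0.05 as the threshold. The number of arrays limits the precision. Background is the 95th percentile of 979 olfactory receptor genes, 5.97. Below it folds between group means are given as at least N-fold. The tests were tried on simulated arrays with independent normal noise. These held no array division, so that check does not cover it. Tables and figures used Python 3.11.15, pandas 2.3.3 and matplotlib 3.10.9.

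The 24 gene lists (490 of 527 members measured) and the members named were chosen with earlier results of these data known. Named were 12 fixed genes of the axis and gate, called genes, the 12 smallest p each way among uncalled genes above background (no predicted genes), up to 4 per list, up to 10 with within-gene calls, and neighbours of Hmga2 and Igf2bp2 with an unadjusted p under 0.05. Other members are named for their roles, after their values were seen. Alternatives were fetal arrays only, the replicate block, trended and robust variance, quantile normalization, median centring, array weights, a filter on dim features, medians of probe sets, the exon table, other thresholds, Simes p-values and each fetal array left out. The array division as a term and probe sets with their own spread were added after seeing the data.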

Additional observations from a re-analysis of the deposited data

How the results depend on the processing

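The 2 calls, Hmga2 and Igf2bp2, held in each setting except the exon table, where only Igf2bp2 was called (count of 1, Hmga2 adjusted p = 0.391). Leaving out each fetal array in turn gave 2 to 3 genes lower and 0 to 1 higher. Samples of the same replicate number showed no shared deviation: same-numbered deviations correlated at -0.01, 0.02 and -0.02. The labels state no pairing, and whether these samples were paired cannot be told from such correlations. With the replicate block 2 genes were called lower, 0 higher and 0 probe sets, and 86 genes within genes. Probe sets called lower were 4 at an adjusted p under 0.1, 2 with the 6 fetal arrays only, 2 with array weights and 2 without the dimmest, where the main count was 0.

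The within-gene count of 131 was 277 with Simes p-values, 0 with each probe set's own spread, 35 with the array division as a term, 199 with the 6 fetal arrays only, 270 without the dimmest probe sets, and 27 to 1258 without each array in turn.

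Of differences of named genes, all uncalled, 32 turned sign over 25 genes; the cause was not tested. With the array division as a term these were Igf2bp1 (-0.040), Hmga1 (0.22), Kit (0.015), Hmgn5 (-0.022), Hmgn3 (-0.14), Slbp (-0.037), Cdc20 (-0.055), Plek (-0.028), Hp (-0.023), Marco (-0.078), Postn (0.20), Dcn (0.047), Kdm5d (1.25), Cyc1 (-0.083), Dnmt1 (-0.0095) and Lcp2 (0.016). With medians of probe sets they were Hmga1 (0.16), Ly6a (0.23), C1qc (-0.0048) and D630023F18Rik (-0.024). In the exon table they were Hmgn3 (-0.25), Ung (-0.084), Zmat3 (-0.013), Ttr (0.084) and Zfp526 (0.65), and with array weights Zfy1 (-0.072). Leaving out arrays turned Igf2bp1 (range -0.069 to 0.28), Hmga1 (range -0.18 to 0.063), Hmgn3 (range -0.14 to 0.51), Xist (range -2.72 to 0.67) and Zfy1 (range -0.087 to 0.37).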
